A study of Mus musculus with 6 samples.

Results

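ProT cells were set against HSC on 2 Affymetrix arrays each, which are 4 of the 6 arrays of the series, across all 19938 genes that have a probe set of that gene alone. Both populations came from mouse bone marrow cells that carry NUP98-HOXB4, a fusion of a nuclear pore protein with a homeobox factor that keeps blood progenitors dividing in culture. HSC had been expanded with IL6 and SCF, and ProT cells had been cultured with DLL4, which activates Notch1, and IL7, the treatment used to direct progenitors to the T lineage. The other 2 arrays, DP, hold double positive thymocytes recovered after ProT cells had been injected into a Rag2-/- mouse, and they enter the estimate of the spread between replicates and the check of the labels. Every group carries the fusion, and DLL4, IL7 and the time spent with them differ together between the groups, so their separate parts cannot be told apart. The sources used here do not say whether IL6 and SCF stayed in the ProT culture, how long it lasted, or the strain and age of the mice.

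Notch receptors are cut after they bind a ligand on a neighbouring cell, and the freed inner part joins the DNA-binding protein RBPJ and coactivators to switch on genes such as Hes1 and Dtx1. In the thymus DLL4 supplies this signal, and progenitors that receive it give up myeloid and B cell fates step by step. IL7 acts through a receptor of the gamma-chain family, with JAK kinases and STAT5, and it supports survival and growth of early thymocytes and of innate lymphoid cells.

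Signals are given on the log2 scale, where a difference of 1 is a 2-fold change, in the order HSC replicate 1, HSC replicate 2, ProT replicate 1, ProT replicate 2. A difference is ProT minus HSC with its standard error from limma, and a gene is called higher or lower when its p, adjusted by Benjamini and Hochberg across the 19938 genes, lies below 0.05. Of these genes 14.7% were called, 1565 higher (7.85%) and 1375 lower (6.90%), and the arrays of both groups did not overlap at 52.1% of all genes. Differences of at least 2-fold held for 692 higher genes (3.47%) and 538 lower genes (2.70%), of at least 4-fold for 293 and 191, and of at least 16-fold for 61 and 43. Without either DP array 1013 genes were higher and 779 lower, and without ProT replicate 1 there were 854 lower genes. With each array centred on its median, 1321 were higher and 1821 lower, which takes the higher genes from 53.2% to 42.0% of those called. A group mean under 7.17, the median of all gene values, was not shown to exceed background, and a fold from it may then be a lower limit. In these bulk samples, fewer cells of a type and less RNA per cell cannot be told apart.

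**Figure D1:**
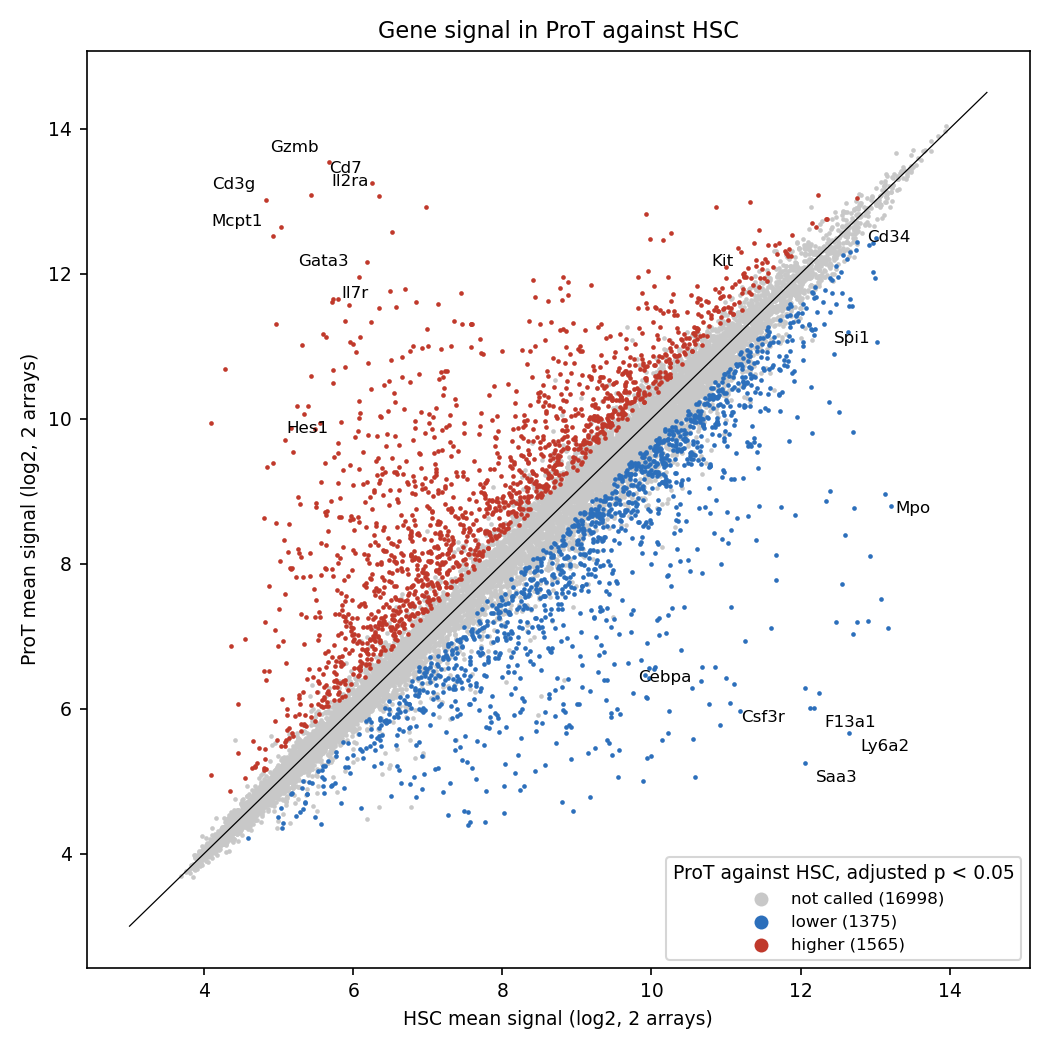
Mean log2 signal of each of the 19938 genes in HSC (horizontal axis, 2 arrays) and ProT (vertical axis, 2 arrays), with the 1565 genes called higher in ProT in red, the 1375 called lower in blue, the others in grey and a line of equal signal. Cd3g, Gzmb and Mcpt1 lie at the upper left, Saa3, F13a1 and Csf3r at the lower right, and Cd34, Kit and Spi1 stay at the upper end of both axes.

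The replicate arrays were not equally close. The HSC arrays lay at least 2-fold apart at 204 genes, the ProT arrays at 144 and the DP arrays at 0. ProT replicate 1 held more signal of neutrophil genes than ProT replicate 2, with a mean over 8 neutrophil markers of 7.80 against 6.73. HSC replicate 2 held more signal of genes for innate sensors than HSC replicate 1, with a mean over 40 genes of 8.77 against 8.16. The part of these differences in the results was not tested, and their values stand beside the gene groups concerned. No label states that the replicates were separate cultures, so a p-value here reflects only the spread of these arrays, and that may be technical.

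The labels were checked against marker genes. Of 10 measured early T cell markers 9 were higher in ProT and 1, Cd44, was lower, and their mean signal went from 6.86 and 6.89 to 11.09 and 11.08. The 6 double positive markers stayed at 5.84 and 5.78 in HSC and 6.05 and 6.26 in ProT, against 12.59 and 12.58 in DP. A wider list of 18 genes of the double positive stage had 11 members higher in ProT and 0 lower in limma (11 and 3 at an unadjusted p under 0.05), or 3 lower without HSC replicate 1 and 1 without HSC replicate 2. Its mean signal was 7.06 and 7.01 in HSC, 8.38 and 8.52 in ProT and 11.89 and 11.88 in DP. The higher members include Ccr9, Themis and Tox, given below, and Satb1, a chromatin organizer, at 9.79, 9.09, 11.13 and 11.14 (1.70 ± 0.21), whereas Cd4, Cd8a and Cd8b1 did not pass. Progenitor markers did not separate the groups as a set, with 2 of 10 higher and 2 lower, and means of 9.85 and 9.30 in HSC and 9.38 and 9.30 in ProT. Cd34, a surface protein of blood progenitors, read 12.77, 12.74, 12.62 and 12.77, and Flt3, a receptor of lymphoid-primed progenitors, 10.89, 9.91, 10.58 and 10.79, and the groups overlapped for both. Without HSC replicate 1 Flt3 passed (adjusted p = 0.0113), and without ProT replicate 1 Cd44 did not (adjusted p = 0.0592). The HSC arrays also held strong signal of granulocyte genes, with a mean over 8 neutrophil markers of 11.33 and 11.50, so by these markers the cultures labelled HSC were not free of granule gene transcripts. For feeder or thymic stroma 2 of 12 markers were higher and 1 lower, and the collagen gene Col1a1 had overlapping groups at 7.70, 7.54, 7.72 and 7.53.

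Among the Notch receptors, Notch1 and Notch3 were higher in ProT, and Notch2 and Notch4 did not pass. Notch1, the receptor that directs T cell fate, read 10.24, 10.29, 11.70 and 11.54, a difference of 1.36 ± 0.08 (adjusted p = 0.000282). Notch3, whose gene is itself a Notch target in thymocytes, read 6.93, 6.77, 8.22 and 8.59 (1.55 ± 0.13). Notch1 was thus already well expressed in HSC, while Notch3 crossed the median of all genes. Notch2 read 10.74, 10.55, 10.98 and 10.76, a difference of 0.23 ± 0.11. Of 6 ligand genes 2 were higher: Dlk1, a Notch-related membrane protein, at 8.45, 8.23, 10.97 and 10.55 (2.42 ± 0.15), and Jag1 at 6.49, 6.73, 7.44 and 7.54 (0.89 ± 0.11). Dll4, the ligand supplied in the culture, stayed near 6.3 on all 4 arrays (6.32, 6.26, 6.41 and 6.32).

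Genes that process and modify the receptor went both ways, with 2 of 14 higher and 6 lower. Furin, the protease that cuts Notch on its way to the surface, read 10.01, 10.44, 12.11 and 11.79 (1.73 ± 0.17). Adam10 and Adam17, the metalloproteases that make the outer cut, were lower by 0.99 ± 0.14 and 0.94 ± 0.11, from 11.28, 11.08 and 11.88, 11.74 in HSC to 10.02, 10.36 and 10.74, 10.98 in ProT. Aph1c, a subunit of the gamma-secretase that makes the inner cut, read 9.19, 9.30, 7.64 and 8.21 (-1.32 ± 0.19). Without ProT replicate 1 or ProT replicate 2 the count of lower genes in this group was 3, and 1 was higher without HSC replicate 2, ProT replicate 1 or the DP arrays. Of 16 genes for the nuclear complex and for turnover 5 were higher, or 3 without ProT replicate 1. They include the coactivators Maml2 (7.51, 7.54, 8.41 and 8.36) and Maml3 (9.51, 9.33, 10.25 and 10.11).

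Of 20 measured genes that Notch is known to activate in T cell progenitors or leukaemia, 14 were higher and 2 lower, and the median difference was 1.30, against -0.01 over all genes. The list also holds Cd3g, which is counted again among the CD3 genes below. Hes1, a repressor induced directly by Notch, read 5.66, 5.95, 9.54 and 9.78. Dtx1, an E3 ligase of the pathway, read 7.51, 7.41, 11.46 and 11.15, and Nrarp, its feedback inhibitor, 8.04, 7.36, 10.003 and 9.80. Hey1, a repressor related to Hes1, read 5.99, 5.94, 8.23 and 9.09. The 4 genes had no overlap between groups, and the differences were 3.86 ± 0.14, 3.85 ± 0.12, 2.20 ± 0.22 and 2.69 ± 0.27 (adjusted p between 2.30e-05 and 0.00188). Not every member followed. Hes5 read 7.78, 7.63, 7.81 and 7.68, Heyl was high on 1 ProT array only (7.01, 7.20, 8.83 and 7.62) and did not pass unless ProT replicate 2 was left out (adjusted p = 0.00407), and Igf1r, the receptor of insulin-like growth factor, was lower at 10.45, 10.34, 9.64 and 9.47 (-0.84 ± 0.09). The 2 lower genes came to 1 without either ProT array or the DP arrays.

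**Figure D2:**
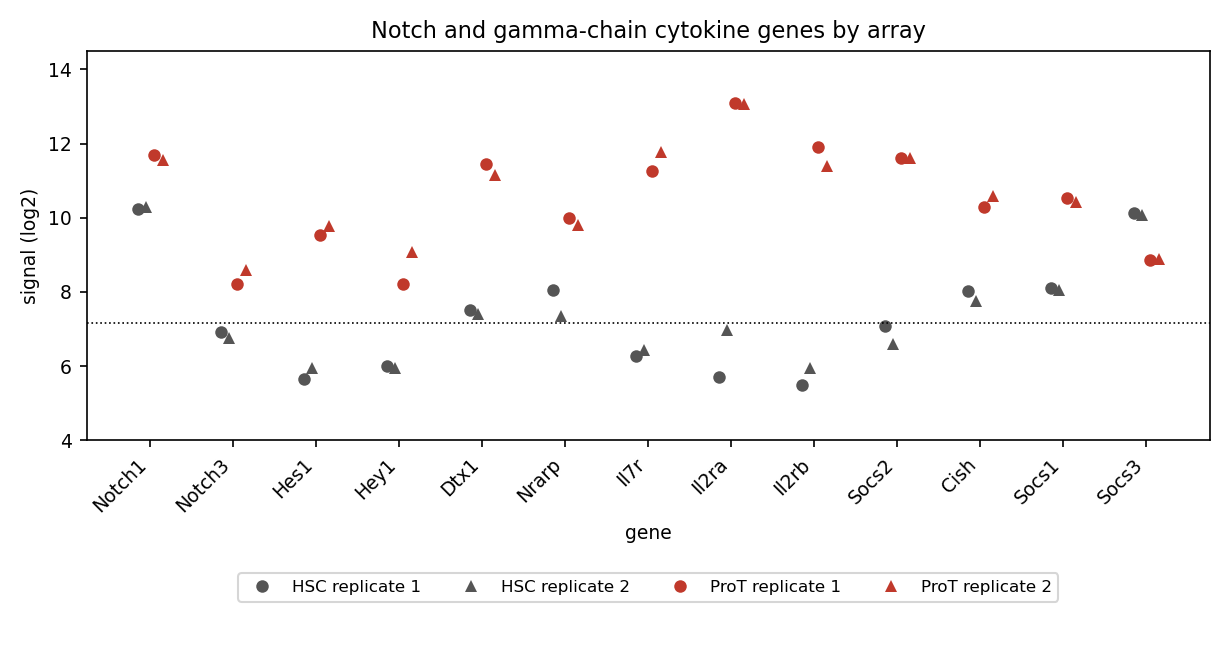
Log2 signal on each of the 4 arrays for receptors and targets of the Notch and gamma-chain cytokine pathways, HSC in grey and ProT in red, replicate 1 as circles and replicate 2 as triangles, with the median of all gene values (7.17) dotted. Hes1, Il7r, Il2ra, Il2rb and Socs2 rise from below or near the median, Notch1 from above 10, and Socs3 is the gene that lies lower in ProT.

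A list of receptors for the gamma-chain cytokines, which include IL2, IL7, IL9 and IL21, and of related chains had 5 of 9 members higher and 2 lower. The gene of the shared gamma chain itself was not measured. Il7r, the receptor chain for the added cytokine, read 6.27, 6.44, 11.26 and 11.78 (5.17 ± 0.17). Il2rb, shared by IL2 and IL15, read 5.50, 5.96, 11.91 and 11.39 (5.92 ± 0.21), and Il9r 6.96, 6.96, 9.93 and 9.67 (2.84 ± 0.11). These 3 genes went from below the median of all genes to far above it. Il2ra, the IL2 receptor chain that early thymocytes carry, differed between the HSC arrays (5.71 and 6.99) but not between the ProT arrays (13.08 and 13.06). Il13ra1, a chain of the IL13 receptor that the list also holds, moved the opposite way, at 8.13, 9.28, 5.85 and 5.95 (-2.80 ± 0.35). Of 9 genes for JAK kinases and STAT factors 1 was higher and 0 lower in limma (6 and 0 at an unadjusted p under 0.05), with all 9 differences above 0 and a median of 0.26. The higher one was Stat4 at 11.43, 11.17, 11.91 and 12.25 (0.78 ± 0.14), while Stat5a did not pass at 10.83, 10.54, 10.91 and 10.86. Stat4 lost its call without HSC replicate 2 (adjusted p = 0.0581) or the DP arrays (0.0679), and 3 of the 9 were higher without HSC replicate 1. The 2 lower receptor genes came to 1 without ProT replicate 1 or the DP arrays.

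Feedback genes that cytokines induce had 11 of 20 members higher and 1 lower. Socs2, a STAT5-induced inhibitor, read 7.08, 6.60, 11.60 and 11.61 (4.77 ± 0.16), Cish 8.02, 7.76, 10.30 and 10.59 (2.55 ± 0.20), and Socs1 8.11, 8.06, 10.52 and 10.43 (2.40 ± 0.08). Socs3, which STAT3 induces downstream of IL6, was the lower member, at 10.12, 10.07, 8.87 and 8.89 (-1.21 ± 0.07, adjusted p = 0.000259). The inhibitors of this family therefore moved in both directions, with replicates within 0.5 of each other. Il6ra, the receptor of the cytokine given to HSC, read 9.18, 9.48, 7.03 and 6.73 (-2.45 ± 0.16), and Kit, the receptor of SCF, read 11.33, 11.17, 12.04 and 11.90 (0.72 ± 0.10). Lif and Osm, cytokines of the IL6 family whose genes are neighbours on chromosome 11, were both higher in ProT, Lif at 6.16, 6.0, 9.68 and 10.32 (3.92 ± 0.21) and Osm at 8.54, 8.48, 10.29 and 10.45 (1.86 ± 0.12).

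Transcription factors of the T lineage had 14 of 25 members higher and 1 lower. Without the DP arrays 9 were higher, and the lower count was 4 without HSC replicate 1, 0 without either ProT array or the DP arrays, 3 after quantile normalization or cyclic loess and 4 after median centring. Gata3, which is needed at the start of T cell development, read 6.03, 6.13, 11.96 and 11.96 (5.87 ± 0.08). Tox read 6.82, 6.71, 10.57 and 10.45, and Ikzf3, a relative of Ikaros, 5.83, 5.74, 8.13 and 8.10, and both pairs of replicates agreed within 0.2. Bcl11b, the factor of T cell commitment, reached only 8.37 and 8.44 in ProT from 7.20 and 7.12 in HSC (1.25 ± 0.08). Lef1 read 6.18, 5.98, 7.11 and 6.76 and stayed below the median of all genes.

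E proteins bind DNA as dimers and drive lymphoid genes, and Id proteins hold them inactive. Of 12 genes for these factors and their partners 3 were higher and 5 lower. Id2, which innate lymphoid cells need, read 10.93, 11.72, 12.92 and 13.06 (1.67 ± 0.25). Lmo2, a bridging factor of stem cells and a T cell oncogene, read 12.54, 12.48, 10.07 and 10.10 (-2.42 ± 0.09), and its partner Lyl1 11.25, 11.19, 10.61 and 10.53 (-0.65 ± 0.07). Lmo2 stayed above 10 in ProT although it fell. Id1 was lower at 9.12, 8.97, 7.94 and 8.33 (-0.91 ± 0.14), and Tcf3, which encodes E2A, did not pass at 0.28 ± 0.13. These counts were small and changed when arrays were left out: 1 gene was higher without ProT replicate 2 or without the DP arrays, and 3 were lower without HSC replicate 1, HSC replicate 2 or the DP arrays.

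The T cell receptor works with the CD3 chains and a set of kinases and adaptors, and 23 of 28 of these genes were higher in ProT and 0 lower in limma, also at an unadjusted p under 0.05, with 1 lower without HSC replicate 1. Cd3g read 4.91, 4.74, 12.99 and 13.05, a difference of 8.19 ± 0.09 (adjusted p = 1.11e-06). Cd3e read 6.42, 6.60, 12.56 and 12.58 (6.06 ± 0.09), and Cd3d 5.88, 5.70, 9.66 and 9.38 (3.73 ± 0.12). All 3 CD3 genes lay below the median of all genes in HSC, so these folds may be lower limits. The adaptor Lat read 8.07, 7.10, 11.35 and 11.27 (3.72 ± 0.29), the kinase Txk 5.89, 6.0, 11.50 and 11.65 (5.63 ± 0.09), and the kinase Zap70 6.87, 6.30, 8.49 and 8.52 (1.92 ± 0.18). Themis, an adaptor of thymocyte selection, differed between the ProT arrays, at 8.73 and 10.04, and from 4.79 and 5.05 in HSC. The members that did not pass include the phosphatase Ptprc, at 11.12, 11.32, 11.17 and 11.82, which passed without ProT replicate 1 (adjusted p = 0.0472).

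Of the receptor segments themselves, Trgv1, a gamma chain variable segment, read 5.12, 4.95, 12.55 and 12.72 (7.60 ± 0.10), and the delta segment Trdv2-2 5.33, 5.31, 6.03 and 6.44 (0.92 ± 0.16). Of 7 alpha and beta segments 2 were higher, Trav14-1 (4.55, 4.55, 7.09 and 6.83) and Trbv1 (8.82, 8.73, 9.06 and 9.14). Trbv1 lost its call when any array other than HSC replicate 1 was left out (adjusted p between 0.098 and 0.139). A probe set for a segment cannot tell rearranged from unrearranged transcripts. Ptcra, the chain that pairs with a new beta chain, read 6.62, 6.44, 8.16 and 8.37 (1.74 ± 0.11). Among 13 recombination genes 3 were higher, Rag1 (5.83, 5.94, 6.76 and 7.20) and the end-joining genes Xrcc5 (7.37, 7.59, 9.81 and 9.78) and Xrcc6 (9.02, 8.84, 9.84 and 9.94), and 5 were higher without HSC replicate 1 or ProT replicate 1. Rag2 was at 5.89, 5.73, 5.88 and 6.88 and did not pass, and Dntt, which adds bases at the joints, was at 5.32, 5.10, 5.43 and 5.47. Rag2 passed without ProT replicate 1 (adjusted p = 0.00608) and Dntt without HSC replicate 1 (0.0459). Cd4 (5.88, 5.80, 6.06 and 5.94) and Cd8a (6.34, 6.31, 6.42 and 6.42) stayed below the median of all genes on all 4 arrays.

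The bases before the start of Ptcra and Cd3g are shown because both genes are described as targets of Notch and both rose in these cells. Capitals mark TGGGAA, the core that RBPJ binds, and in Cd3g also AGATAA, the core bound by GATA factors. The sequences are from RefSeq on GRCm38.p6, Ptcra from chr17:46763713-46763912 and Cd3g from chr9:44980432-44980631, both on the minus strand and ending at the base before the start.
Ptcra: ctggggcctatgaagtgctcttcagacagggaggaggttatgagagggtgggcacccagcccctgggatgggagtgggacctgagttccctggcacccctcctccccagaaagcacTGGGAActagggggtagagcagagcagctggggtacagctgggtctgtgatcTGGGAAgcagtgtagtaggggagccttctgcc
Cd3g: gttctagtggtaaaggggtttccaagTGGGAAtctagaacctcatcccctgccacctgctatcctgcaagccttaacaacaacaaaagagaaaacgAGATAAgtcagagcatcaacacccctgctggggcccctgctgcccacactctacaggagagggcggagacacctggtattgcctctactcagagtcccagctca
In Ptcra the matches began 84 and 32 bases before the start, and in Cd3g 174 (TGGGAA) and 104 (AGATAA) bases before it. Counting either strand in the 250 bases before each start, 21.6% of all 32851 windows held TGGGAA, against 20.3% of 711 windows of genes higher by at least 2-fold and 21.7% of 554 windows of genes lower by at least 2-fold. For AGATAA the shares were 9.99%, 9.0% and 7.76%. A 6-base core is frequent, so a match describes the letters and no binding.

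Most granule genes of neutrophils were lower in ProT. Of 28 genes for later granules and secreted proteins 24 were lower and 0 higher in limma (25 and 0 at an unadjusted p under 0.05), with a median difference of -2.80, and of 12 genes for primary granules and their packing 6 were lower. Saa3, an acute phase protein, read 11.84, 12.29, 5.42 and 5.08 (-6.81 ± 0.18), and Ltf, the iron-binding lactoferrin of secondary granules, 9.78, 9.94, 6.82 and 6.52 (-3.19 ± 0.12). Cybb, the catalytic chain of the phagocyte oxidase, read 12.50, 13.02, 7.79 and 6.59 (-5.57 ± 0.40), whereas its partner Cyba did not pass at 12.37, 12.66, 12.63 and 12.37. The groups were thus far apart for Saa3, Ltf and Cybb and overlapped for Cyba.

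Among primary granule genes, Mpo, the peroxidase, read 13.13, 13.13, 9.76 and 8.16 (-4.17 ± 0.48), Elane, neutrophil elastase, 13.16, 13.27, 9.54 and 8.06 (-4.42 ± 0.44), and Prtn3, proteinase 3, 12.84, 13.01, 8.66 and 7.55 (-4.83 ± 0.34). Ms4a3, a membrane protein of granulocyte progenitors, read 11.86, 12.41, 6.65 and 5.37 (-6.12 ± 0.42). For Mpo, Elane and Prtn3 the HSC arrays were within 0.2 of each other, and ProT replicate 1 was above ProT replicate 2 each time. Ngp, a secondary granule protein, had the widest gap between the ProT arrays of this group, at 8.86 and 6.59, from 12.34 and 12.78 in HSC. Over the 28 later granule genes ProT replicate 1 was the higher ProT array for 24, by a median of 0.20, against 0.03 over all genes. Over the 12 primary granule genes it was the higher for only 6, with a median gap of 0.01. Ctsg, a protease of the same granules, fell less and stayed high, at 12.98, 13.08, 11.17 and 10.93 (-1.98 ± 0.10). The granule proteoglycan Srgn, which cytotoxic lymphocytes also use, did not pass at 13.41, 13.55, 13.38 and 13.42.

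The bases before Elane, Prtn3 and Mpo, 3 of the 6 primary granule genes that were lower, are shown, and capitals mark GAGGAAGT. This core is bound by PU.1, the product of Spi1. All 3 shown hold the core, and whether the other lower primary granule genes hold it is not given here. The sequences are from RefSeq on GRCm38.p6, all on the plus strand and ending at the base before the start, at chr10:79886112-79886311, chr10:79879467-79879666 and chr11:87793534-87793783.
Elane: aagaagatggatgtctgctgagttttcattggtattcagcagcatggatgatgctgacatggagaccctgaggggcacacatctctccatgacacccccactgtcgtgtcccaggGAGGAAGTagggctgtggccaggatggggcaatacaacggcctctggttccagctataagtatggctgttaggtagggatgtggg
Prtn3: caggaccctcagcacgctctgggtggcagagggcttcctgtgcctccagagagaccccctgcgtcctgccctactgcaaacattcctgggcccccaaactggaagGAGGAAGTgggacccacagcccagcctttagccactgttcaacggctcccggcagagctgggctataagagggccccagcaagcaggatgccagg
Mpo: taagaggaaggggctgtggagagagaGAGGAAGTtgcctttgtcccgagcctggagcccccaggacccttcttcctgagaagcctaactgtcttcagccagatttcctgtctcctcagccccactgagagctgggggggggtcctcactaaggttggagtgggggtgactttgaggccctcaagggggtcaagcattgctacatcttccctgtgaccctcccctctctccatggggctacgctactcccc
The matches began 85 bases before the start of Elane, 95 before Prtn3 and 224 before Mpo. The stretch shown is 200 bases for Elane and Prtn3 and 250 for Mpo, whose match lies beyond 200. Of all 32851 windows of 250 bases 2.44% held GAGGAAGT on either strand, against 4.87% of the 554 windows of genes lower by at least 2-fold and 1.97% of the 711 windows of genes higher by at least 2-fold. Some windows belong to the same gene, and the match alone does not show that PU.1 binds there.

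**Figure D3:**
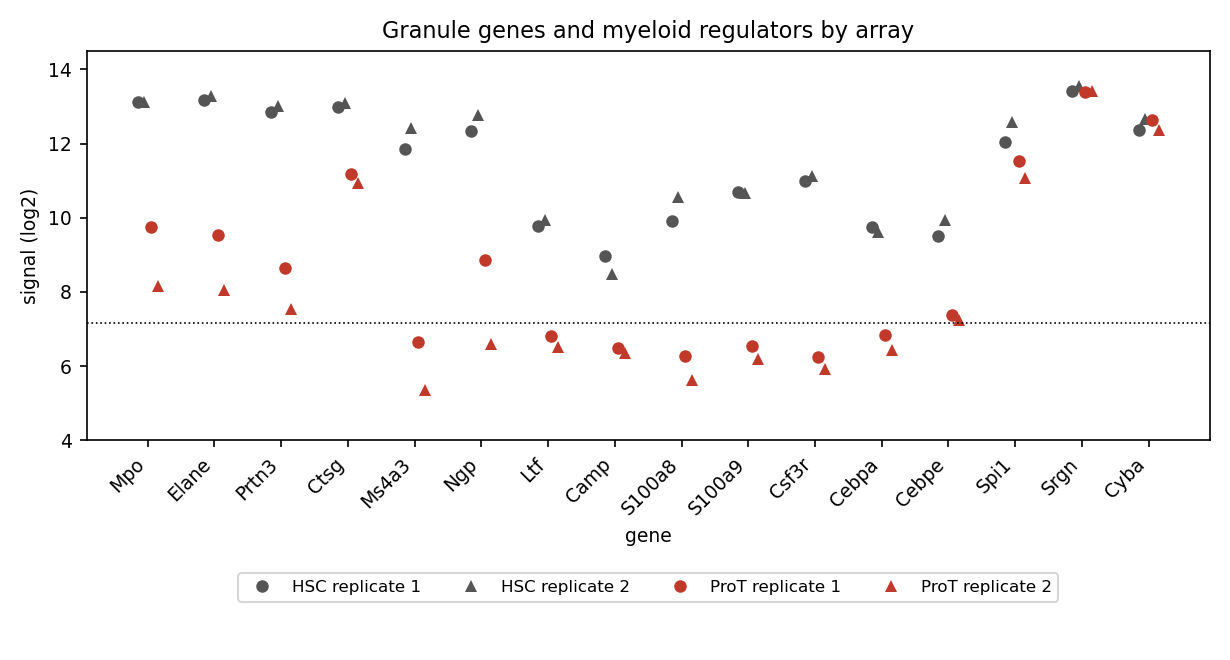
Log2 signal on each of the 4 arrays for granule genes and myeloid regulators, HSC in grey and ProT in red, replicate 1 as circles and replicate 2 as triangles, with the median of all gene values (7.17) dotted. Mpo, Elane, Prtn3, Ms4a3 and Ngp lie above 11.8 in HSC and far lower in ProT, where replicate 1 is above replicate 2, while Srgn, Cyba and Spi1 stay above 11.

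Of 21 regulators of myeloid cells 7 were lower and 4 higher. Cebpa, which starts the granulocyte program, read 9.75, 9.62, 6.83 and 6.43 (-3.06 ± 0.14), Cebpe, which drives secondary granules, 9.52, 9.93, 7.39 and 7.24 (-2.41 ± 0.15), and Cebpd 7.29, 7.44, 5.39 and 5.46 (-1.94 ± 0.09). Spi1 fell by far less and remained abundant, at 12.04, 12.59, 11.54 and 11.07 (-1.01 ± 0.22, adjusted p = 0.0341). Its call was lost without HSC replicate 2 (adjusted p = 0.0865), ProT replicate 2 (0.107) or the DP arrays (0.108). Irf8, a monocyte and dendritic factor, read 10.67, 10.71, 9.53 and 9.36 (-1.24 ± 0.09). The higher members were Egr1, Egr2, Irf4 and Klf4, of which Egr1 read 8.43, 8.71, 10.56 and 11.62 and Irf4, also a lymphoid factor, 5.78, 5.91, 7.59 and 7.13. Egr2 lost its call without either HSC array or the DP arrays (adjusted p between 0.0535 and 0.0896).

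Of 27 cytokine receptor genes, from a list of myeloid and other receptors, 9 were higher and 8 lower. Csf3r, the receptor of G-CSF, read 10.99, 11.13, 6.24 and 5.92 (-4.98 ± 0.12), and Csf1r, that of M-CSF, 10.68, 11.03, 6.84 and 6.30 (-4.28 ± 0.20). Among the higher members, Il12rb2 read 8.59, 8.24, 11.90 and 11.91 (3.49 ± 0.12), Il17rb, the receptor of IL25, 5.76, 5.83, 8.79 and 9.42 (3.31 ± 0.20), and Il18r1 5.87, 5.36, 8.58 and 8.83 (3.09 ± 0.18). The lower count was 5 without ProT replicate 2 and 4 without the DP arrays.

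Monocyte and macrophage genes had 16 of 34 members lower and 2 higher, and 10 lower without ProT replicate 2. F13a1, a clotting factor subunit of monocytes, read 12.13, 12.24, 6.17 and 5.84 (-6.18 ± 0.13), and Lyz2, lysozyme, 12.49, 12.94, 9.27 and 8.27 (-3.95 ± 0.33). The higher members were Maf (6.96, 8.48, 9.81 and 10.35) and the macrophage surface receptor Adgre1 (9.15, 10.18, 11.02 and 11.18), and both lost the call without either ProT array or the DP arrays (adjusted p between 0.0664 and 0.111). HSC replicate 2 was the higher HSC array for 31 of the 34 genes, by a median of 0.44, against 0.00 over all genes. Innate sensors had 23 of 40 members lower and 3 higher, with a median difference of -1.08. Tlr4, the endotoxin receptor, read 7.35, 7.63, 4.56 and 4.61 (-2.91 ± 0.11), its partner Cd14 8.81, 9.04, 5.51 and 5.10 (-3.62 ± 0.16), and the lectin Clec5a 9.27, 10.50, 5.06 and 4.96 (-4.88 ± 0.37). Tlr13 was lower too (9.001, 10.86, 6.36 and 5.97), with a wide gap between the HSC arrays, of which replicate 2 was the higher for 36 of the 40 sensors. The 3 sensors that were higher came to 1 without ProT replicate 1 or without the DP arrays. Lysosomal genes had 20 of 44 members lower and 3 higher, or 12 lower without the DP arrays and 1 higher without ProT replicate 2 or the DP arrays, at a smaller median of -0.26. The cathepsin Ctse read 12.58, 12.83, 10.30 and 9.32, while Ctsw, a cathepsin of cytotoxic cells, read 6.54, 6.58, 10.43 and 10.02 (3.66 ± 0.14).

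**Figure D4:**
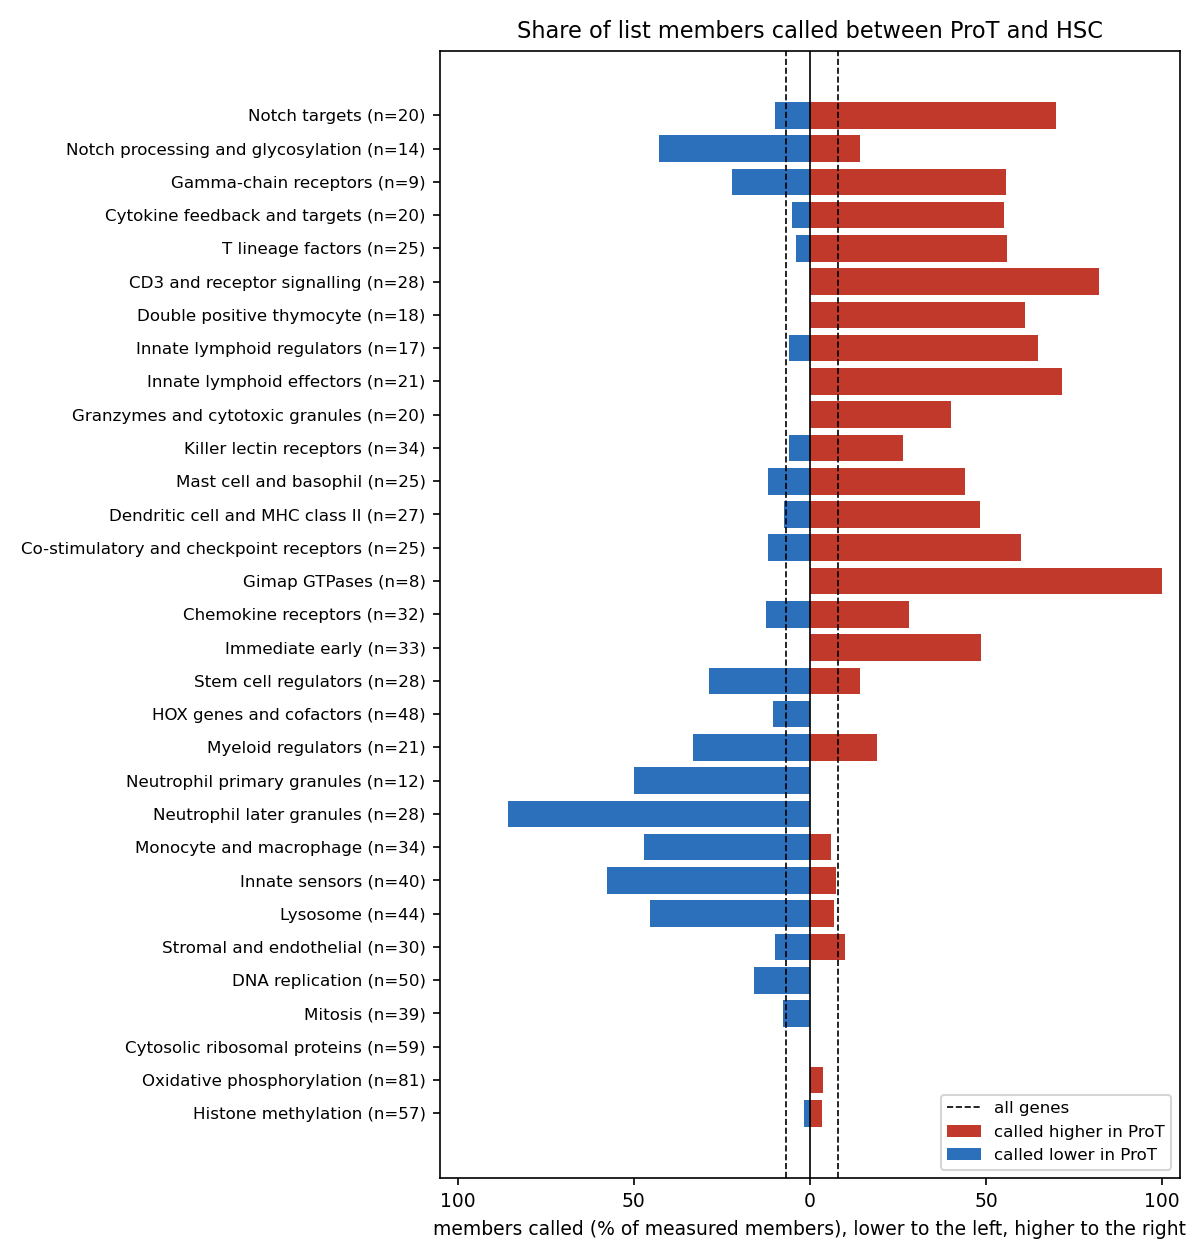
Percent of the measured members of each gene list that were called higher (red, to the right) or lower (blue, to the left) in ProT, with dashed lines at the shares over all genes (7.85% higher and 6.90% lower) and the number of members beside each name. Gimap, T cell receptor signalling and innate lymphoid effector genes reach furthest to the right, later granule and innate sensor genes furthest to the left, and ribosomal protein genes have no bar.

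Stem cell regulators had 4 of 28 members higher and 8 lower, so that 8 of 28 stood against 6.90% of all genes for the falls. Mecom, a regulator of stem cell renewal, read 9.29, 8.33, 6.18 and 5.96 (-2.74 ± 0.30), Hlf 9.61, 9.09, 7.98 and 7.98 (-1.38 ± 0.17) and Hmga2 8.91, 8.68, 7.54 and 7.65 (-1.20 ± 0.12). Mycn moved up, at 8.22, 6.96, 11.39 and 11.22 (3.71 ± 0.38). HSC replicate 1 was above HSC replicate 2 for Mecom, Hlf and Mycn alike, and over the list HSC replicate 2 was the higher for 6 of 28 genes. Meis1, a HOX cofactor that the fusion acts with, did not pass at 10.52, 9.86, 10.43 and 10.47, except without HSC replicate 1 (adjusted p = 0.036). The higher count was 8 without HSC replicate 1 and 2 without HSC replicate 2 or the DP arrays, and the lower count was 5 without ProT replicate 2.

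Of 48 HOX genes and cofactors 5 were lower and 0 higher in limma (8 and 1 at an unadjusted p under 0.05), or 9 lower and 2 higher without HSC replicate 1. The lower genes were Hoxb2 (7.99, 7.52, 6.63 and 6.59), Hoxb3 (9.05, 9.11, 8.41 and 8.30), Hoxb4 (8.51, 9.20, 7.87 and 7.72), Hoxb5 (7.25, 7.43, 6.52 and 6.30) and Hoxa10 (8.39, 8.44, 7.79 and 7.79). They include 4 of the HOXB cluster. The lower genes are 10.4% of the list, against 6.90% of all genes, and the higher share of 0% stands against 7.85%. For 29 of the 48 both group means lay below the median of all genes. Hoxa9, the HOXA gene of early progenitors, read 10.88, 11.001, 10.63 and 10.69 and did not pass in the main fit. After median centring it passed in limma, with a difference of -0.36 (adjusted p = 0.0397). Without HSC replicate 1 its difference was -0.34. Hoxb4 lost its call without either ProT array or the DP arrays (adjusted p between 0.0882 and 0.0986). Both parts of the fusion are also genes on the array: Nup98 read 11.67, 11.77, 11.58 and 11.51 and did not pass, and whether the Hoxb4 and Nup98 probe sets read the fusion transcript was not tested.

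Innate lymphoid cells are relatives of T cells that lack antigen receptors, and most of their listed genes were higher in ProT. The regulators include Gata3, which is also counted among the T lineage factors above. Of 17 regulators 11 were higher and 1 lower, and of 21 effectors and receptors 15 were higher and 0 lower in limma (18 and 0 at an unadjusted p under 0.05), with medians of 1.13 and 2.08. Without HSC replicate 1, 2 regulators were lower. Rora, needed by type 2 innate lymphoid cells, read 6.95, 6.70, 9.69 and 10.23 (3.14 ± 0.20), and Ahr, a ligand-activated factor, 7.30, 7.41, 11.37 and 11.33 (4.0 ± 0.08). Zeb2 was the lower one, at 10.24, 10.53, 7.72 and 8.36 (-2.35 ± 0.22), and Zbtb16, which marks the common innate lymphoid precursor, did not pass at 9.89, 9.53, 9.90 and 9.68. Among effectors, Cxcr6 read 5.91, 5.88, 10.52 and 10.91 (4.82 ± 0.13), Icos 7.31, 7.32, 10.76 and 11.24 (3.68 ± 0.16), and Ncr1, an activating receptor of NK cells, 5.21, 5.07, 8.41 and 8.68 (3.41 ± 0.13). The type 2 cytokine genes Il5 (4.85, 4.90, 7.56 and 7.82), Il13 (6.99, 6.86, 9.37 and 8.82) and Il4 (6.23, 6.09, 6.82 and 6.81) were higher too. They lie beside each other on chromosome 11 in the GRCm38.p6 order, with Rad50 between Il13 and Il5, and Rad50 did not pass (10.49, 10.54, 9.31 and 10.32) unless ProT replicate 2 was left out (adjusted p = 0.00268).

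Of 20 genes for granzymes and cytotoxic granules 8 were higher and 0 lower in limma (9 and 1 at an unadjusted p under 0.05), with 1 lower without HSC replicate 1. Gzmb and Gzma, the main granzymes, read 5.65, 5.69, 13.55 and 13.52 and 5.39, 5.47, 13.04 and 13.12, differences of 7.86 ± 0.08 and 7.65 ± 0.09. Prf1, perforin, through which granzymes enter a target cell, reached only 7.96 and 7.43 from 6.55 and 6.61 (1.11 ± 0.17). Serpinb9 (7.20, 7.39, 10.12 and 9.98) and Serpinb6b (7.59, 7.29, 11.56 and 11.91), of the family that inhibits granzymes, were higher as well. Of 34 killer lectin receptor genes and their neighbours in the family 9 were higher and 2 lower. The lower count was 4 without HSC replicate 1, 1 without HSC replicate 2 or ProT replicate 2 and 0 without ProT replicate 1 or the DP arrays, and with dim genes left out 4 were higher. Klrb1b read 6.18, 6.20, 12.01 and 12.30 (5.97 ± 0.15) and Klrd1, CD94, 5.10, 5.04, 8.23 and 8.43 (3.26 ± 0.10). Several of the others stayed far below the median of all genes on all 4 arrays although they were called, such as Klri2 at 4.14, 4.04, 5.0 and 5.17.

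Mast cell and basophil genes went both ways, with 11 of 25 higher and 3 lower. The chymases Mcpt1, Mcpt2 and Mcpt4 read 4.89, 4.96, 12.55 and 12.48, then 4.34, 4.22, 10.72 and 10.65, and 4.85, 5.09, 11.28 and 11.32. Cpa3, a carboxypeptidase that progenitors and mast cells share, was high in HSC already, at 11.03, 10.70, 12.87 and 12.97 (2.05 ± 0.14), and Fcer1a, the alpha chain of the IgE receptor, read 4.87, 4.81, 9.23 and 9.43 (4.49 ± 0.09). Against these, Hdc, which makes histamine, read 10.18, 9.70, 7.09 and 6.72 (-3.03 ± 0.19), and Mitf, a factor of the mast cell lineage, 7.80, 8.26, 6.95 and 7.03 (-1.04 ± 0.15). Kit, which mast cells also need, is described above among the receptors. Among 19 enzymes for eicosanoids and steroids, Cyp11a1, which starts steroid synthesis, read 6.06, 5.37, 11.70 and 11.51 (5.89 ± 0.22), and Alox5, which makes leukotrienes, 8.22, 6.95, 11.14 and 10.83 (3.40 ± 0.39).

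Many of these proteases lie in 1 cluster on chromosome 14. In the gene order of GRCm38.p6, Cma1 (0.47 ± 0.11), Mcpt1 (7.59 ± 0.08), Mcpt2 (6.40 ± 0.09) and Mcpt4 (6.33 ± 0.10) were higher in ProT, and next to them Mcpt8 did not pass (-0.54 ± 0.18). Ctsg was lower (-1.98 ± 0.10). Then came 5 more granzyme genes, from Gzme (5.06, 5.06, 5.16 and 5.32) to Gzmf (4.91, 4.89, 5.06 and 5.04), none of which passed. At the far end, Gzmc (5.16 ± 0.20) and Gzmb (7.86 ± 0.08) were higher again. Cma1 lost its call when any array other than HSC replicate 1 was left out (adjusted p between 0.0632 and 0.136), and Mcpt8 passed without ProT replicate 1 (0.0161). Within 1 cluster the neighbours thus ranged from a fall to rises of over 7 on the log2 scale. Near-identical members of these families can share probe signal, and the size of this was not tested. The fall of Elane (-4.42 ± 0.44) and Prtn3 (-4.83 ± 0.34) was shared by their neighbour Plppr3 on chromosome 10, a phospholipid phosphatase relative, at 10.98, 10.90, 9.19 and 9.20 (-1.75 ± 0.09).

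**Figure D5:**
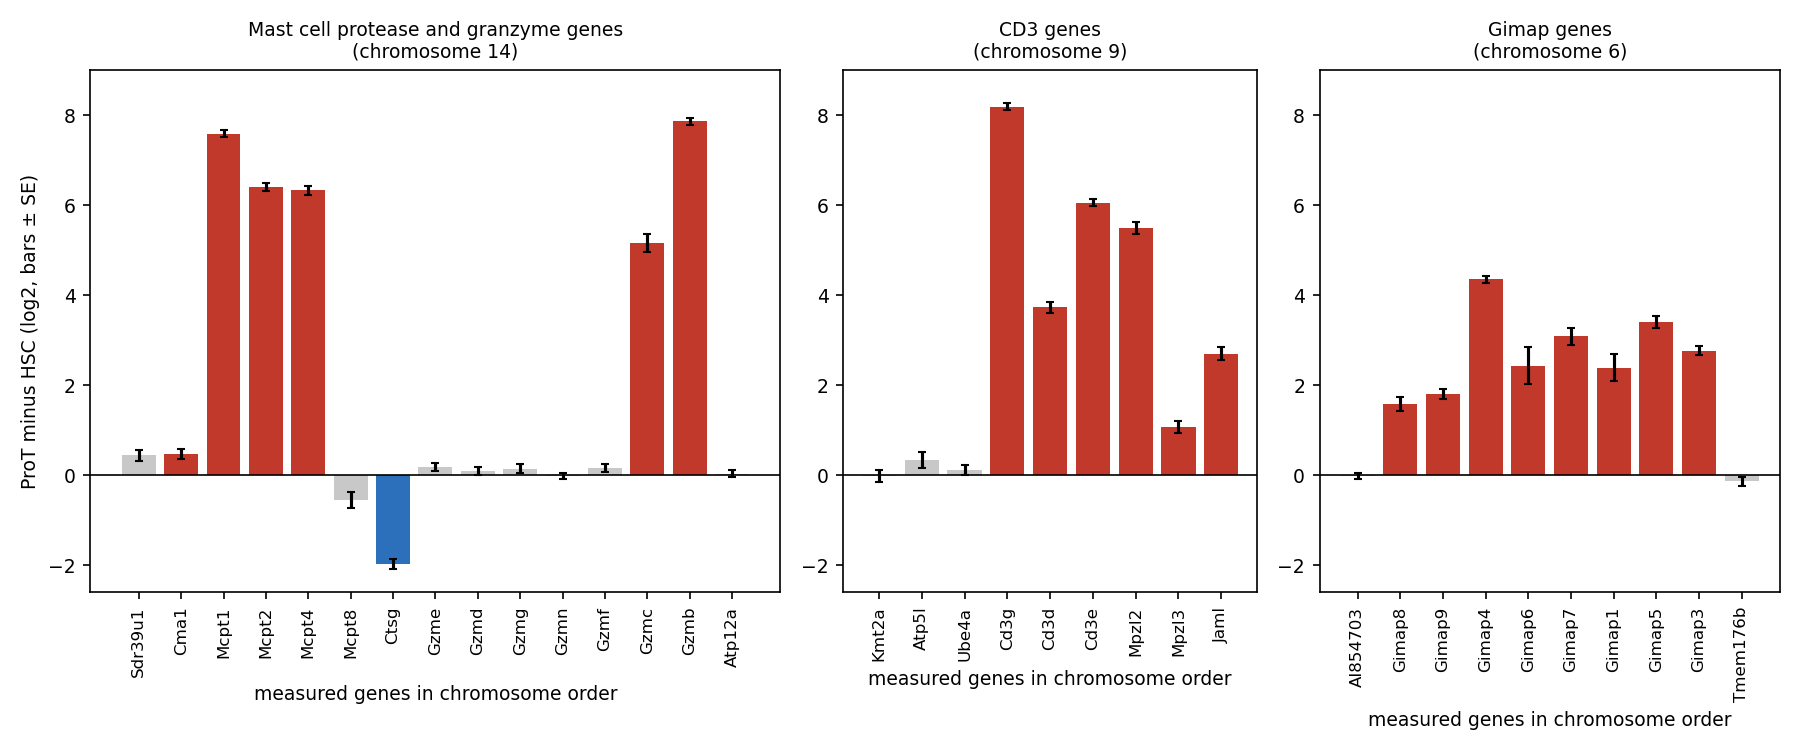
Difference in log2 signal between ProT and HSC, with standard errors, for measured genes in chromosome order at the mast cell protease and granzyme cluster, the CD3 genes and the Gimap genes. Red bars were called higher, blue bars lower and grey bars not called, with the protease cluster mixing rises above 5, a fall of Ctsg and genes near 0, and the 8 Gimap genes all higher.

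Runs of neighbouring genes that moved together were counted along the chromosomes. Among 19853 placed genes there were 12 runs of at least 4 consecutive measured genes called in 1 direction, 11 higher and 1 lower, which hold 56 genes. The longest was the Gimap family of lymphocyte GTPases on chromosome 6, where all 8 measured genes were higher, from Gimap8 (6.96, 6.56, 8.24 and 8.45) to Gimap4 (5.14, 5.24, 9.53 and 9.55). The next was the CD3 locus on chromosome 9, where Mpzl2 (5.77, 5.50, 11.02 and 11.23), Mpzl3 (6.04, 6.43, 7.25 and 7.36) and Jaml (6.28, 6.03, 8.80 and 8.91), adhesion proteins beside Cd3e, rose with the 3 CD3 chains. The run that fell holds Zeb2 and its antisense gene Zeb2os (7.27, 7.39, 5.93 and 5.81) with Gtdc1 (8.53, 8.52, 7.29 and 6.98) and Arhgap15 (10.64, 10.56, 9.72 and 10.20) on chromosome 2, of which Arhgap15 lost its call when any array other than ProT replicate 2 was left out (adjusted p between 0.0723 and 0.132). Families with similar sequence can share probe signal, so neighbours of 1 family are not independent measurements.

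In a list that joins dendritic cell genes with those for antigen presentation by MHC class II, 13 of 27 were higher and 2 lower, or 1 lower without HSC replicate 2 or the DP arrays. H2-Aa read 5.80, 5.40, 11.33 and 11.01 (5.57 ± 0.17), H2-Eb1 7.56, 7.17, 10.42 and 10.13 (2.91 ± 0.18), and Cd74, their chaperone, 6.64, 7.35, 11.43 and 11.05 (4.24 ± 0.25). H2-Ab1 differed between the HSC arrays, at 8.45 and 6.72, and was at 11.45 and 11.17 in ProT. Of the other class II genes H2-Oa was higher (0.75 ± 0.14), and H2-Ob (0.60 ± 0.17), H2-DMa (-0.03 ± 0.10) and H2-Ea (-0.04 ± 0.07) did not pass. H2-Oa lost its call without HSC replicate 2, ProT replicate 1 or the DP arrays (adjusted p between 0.0698 and 0.0804), and H2-Ob passed without HSC replicate 1 (0.00879). The integrin chain Itgax, CD11c, read 6.01, 6.16, 9.42 and 9.18 (3.22 ± 0.11), while Irf8 fell and Flt3 overlapped between groups, as given above. Of 27 MHC class I genes 2 were higher (7.41%) and 1 lower (3.7%), against 7.85% and 6.90% of all genes. They came to 4 and 2 without HSC replicate 1, and 1 was higher without ProT replicate 1 or the DP arrays.

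Homing and adhesion receptors went both ways. Of 32 chemokine receptors 9 were higher and 4 lower. Ccr9, which guides progenitors within the thymus and gut, read 5.85, 5.75, 11.47 and 11.82 (5.85 ± 0.13), Cxcr5 5.03, 5.15, 9.86 and 9.54 (4.62 ± 0.12), and Ccr4 6.12, 6.05, 10.15 and 9.999 (3.99 ± 0.09). Cxcr2, the neutrophil receptor, moved down, at 10.04, 9.95, 5.57 and 5.12 (-4.65 ± 0.16). The lower count was 8 without HSC replicate 1 and 1 without ProT replicate 1, ProT replicate 2 or the DP arrays. Of 37 integrins and selectins 10 were higher and 7 lower: Itgae, which binds E-cadherin, read 5.87, 6.11, 11.04 and 11.01 (5.03 ± 0.10) and its partner Itgb7 8.64, 7.90, 10.95 and 10.93 (2.67 ± 0.23), whereas Itgb5 read 9.46, 9.31, 7.22 and 7.22 (-2.17 ± 0.08).

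Co-stimulatory and checkpoint receptors had 15 of 25 members higher and 3 lower, or 1 lower without ProT replicate 2 or the DP arrays. Tnfrsf9, known as 4-1BB, read 7.09, 6.85, 12.95 and 12.90 (5.95 ± 0.10), Cd160 5.79, 5.66, 10.55 and 10.42 (4.76 ± 0.09), and Ctla4 5.96, 5.78, 9.29 and 9.30 (3.43 ± 0.13). Cd28, the receptor that Ctla4 opposes, was high in both groups at 9.56, 9.79, 10.21 and 10.27 (0.56 ± 0.10), and its call was lost without either ProT array or the DP arrays (adjusted p between 0.0548 and 0.0593). Among TNF family genes 11 of 39 were higher and 7 lower, with the death receptor Fas at 7.14, 7.77, 5.37 and 5.22 (-2.16 ± 0.20) and the TNF receptor Tnfrsf1b at 10.45, 10.66, 9.64 and 9.38 (-1.05 ± 0.14). Of 33 immediate early genes 16 were higher and 0 lower in limma (19 and 4 at an unadjusted p under 0.05), with 4 lower without HSC replicate 1 and 2 without HSC replicate 2. The higher ones include Dusp5, a phosphatase of ERK, at 9.03, 8.58, 11.50 and 11.76 (2.83 ± 0.17), and Nr4a1, at 8.03, 8.31, 10.06 and 10.01 (1.86 ± 0.11).

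Genes of the cell cycle and survival went both ways. Of the D cyclins, Ccnd1 was lower at 10.30, 10.27, 8.93 and 8.94 (-1.35 ± 0.08), Ccnd2 was higher at 11.34, 10.98, 12.49 and 12.21 (1.19 ± 0.15), and Ccnd3 did not pass at 11.43, 11.50, 11.66 and 11.74. Of 14 BCL2 family genes 4 were higher: the survival genes Bcl2 (11.51, 11.63, 12.18 and 12.60) and Bcl2l1 (8.39, 8.21, 8.94 and 8.88) and the death genes Bcl2l11 (9.04, 9.09, 10.53 and 10.17) and Bmf (8.46, 8.24, 9.88 and 9.49). Genes for survival and for death therefore rose side by side, though Bcl2 lost its call without the DP arrays (adjusted p = 0.0617). Of 39 mitosis genes 0 were higher and 3 lower in limma (0 and 21 at an unadjusted p under 0.05). The share of lower genes, 7.69%, stands against 6.90% of all genes. Among these mitosis genes the lower count was 0 without the DP arrays and 8 after median centring, and it changed without HSC replicate 2 or ProT replicate 2. ProT replicate 1 was the lower ProT array for most of them, with 3 of the 39 higher there and a median gap of -0.37. An example is the kinesin Cenpe at 10.08, 10.20, 7.28 and 9.18, which did not pass with all genes in the fit. With dim genes left out Cenpe passed in limma (adjusted p = 0.0424). Its difference was -0.97 without ProT replicate 1 and -2.86 without ProT replicate 2. Of 50 replication genes 0 were higher and 8 lower in limma (1 and 24 at an unadjusted p under 0.05), with a median difference of -0.24, or 15 lower after median centring, 3 without HSC replicate 2 and 2 without ProT replicate 1 or the DP arrays.

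Cytosolic ribosomal protein genes had 0 of 59 members called in either direction at an adjusted p below 0.05 in limma, and at an unadjusted p under 0.05 there were 4 higher and 0 lower. Without HSC replicate 1, 25 of them were higher, and HSC replicate 2 was the higher HSC array for 11 of 59. Oxidative phosphorylation had 3 of 81 higher, or 20 higher and 5 lower without HSC replicate 1. In both groups of genes the count thus depends on whether that array is included. With all arrays, 3.7% of the oxidative phosphorylation genes were higher, below the 7.85% of all genes. Sterol and fatty acid synthesis had 7 of 29 higher and 0 lower in limma (8 and 1 at an unadjusted p under 0.05), such as Srebf1 at 10.16, 9.94, 10.73 and 10.75 (0.69 ± 0.10), and the count was 3 without HSC replicate 2, 2 without ProT replicate 2 and 1 without the DP arrays, with 2 lower without HSC replicate 1. Chromatin genes gave small counts, to be set against 7.85% higher and 6.90% lower over all genes. The shares were 3.51% and 1.75% for histone methylation, 18.8% and 12.5% for DNA methylation and 12.9% and 3.23% for Polycomb. Of 57 for histone methylation 2 were higher and 1 lower, of 16 for DNA methylation 3 were higher and 2 lower, and of 31 Polycomb genes 4 were higher (12.9%) and 1, Phf19, was lower (9.23, 9.37, 7.73 and 7.76, -1.55 ± 0.08). Without the DP arrays the higher counts were 0, 0 and 2 and without HSC replicate 2 Polycomb also had 2. Without ProT replicate 1 DNA methylation had 0 higher and Polycomb 1, and without ProT replicate 2 histone methylation had 0 and DNA methylation 1. Without HSC replicate 1 histone methylation had 6 higher and 2 lower and Polycomb 3 lower. Of the lower counts, histone methylation had 2 without HSC replicate 2 and 0 without ProT replicate 1 or the DP arrays, DNA methylation 1 without HSC replicate 2, ProT replicate 1 or the DP arrays, and Polycomb 2 without ProT replicate 2.

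A few markers of other lineages were called. For B lineage genes the shares were 21.1% higher and 10.5% lower, against 7.85% and 6.90% of all genes. For erythroid and megakaryocyte genes they were 15% and 10%. Of 19 B lineage genes 4 were higher and 2 lower, with Spib at 6.16, 6.17, 8.82 and 8.19 (2.34 ± 0.20) and Pou2af1 at 6.85, 6.82, 8.84 and 9.08 (2.13 ± 0.13), while Pax5, the factor of B cell commitment, stayed at 6.29, 6.37, 6.21 and 6.33. The 2 lower genes came to 1 without HSC replicate 2 or ProT replicate 1 and to 0 without ProT replicate 2 or the DP arrays. Of 20 erythroid and megakaryocyte genes 3 were higher and 2 lower, among the former Itgb3 at 9.01, 8.01, 11.27 and 11.34 (2.80 ± 0.30), and 1 was higher without either ProT array or the DP arrays and 1 lower without ProT replicate 1. Of 30 stromal and endothelial genes 3 were higher and 3 lower (10% each), against 7.85% and 6.90% of all genes. The higher ones were Epcam (6.45, 6.30, 9.96 and 10.08), Pdgfrb (9.04, 8.18, 11.71 and 11.53) and Lum (4.52, 4.39, 6.01 and 6.12), and the thymic epithelial factor Foxn1 stayed at 5.67, 5.61, 5.57 and 5.60. With Col1a1 level, as given above, the stromal markers did not move as a set.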

How the data were processed

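Per the labels, 6 mouse RNA samples were labelled with biotin and each was read on 1 Affymetrix array. The authors deposited 1 table of log2 signals for 35556 probe sets, made with RMA and Partek per the submitters' processing notes, with versions not given in the sources used here. RMA sets all arrays to 1 distribution, so a shift shared by all genes cannot be seen. A platform table links 21789 probe sets to 1 gene, 1621 to several and 12146 to none, which covers 19938 genes, and for the 999 genes with several probe sets the one with the highest mean was kept. No filter on signal was applied.

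The 6 arrays were fitted with a mean per group in limma 3.58.1 (lmFit, eBayes, R 4.3.3), with 3 residual and 2.83 prior degrees of freedom, and ProT was set against HSC. The scripts were tested on simulated data. Tables and figures were made in Python 3.11.15 (matplotlib 3.10.9, numpy 2.4.6, pandas 2.3.3).

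The comparison, its members and the 63 gene lists were chosen with earlier results of these data known, and 6 further lists (microRNA loci, aryl hydrocarbon receptor, aldo-keto reductases, guanylate binding proteins, epithelial adhesion and TGF beta genes) were written after the values had been seen. Some genes are in several lists. A rule set which genes could be named. It took the 15 largest rises and falls, up to 6 members of a list called in each direction and 3 that did not pass. It also took all members of lists of up to 12 genes and a fixed set of stage genes. Not all of these are named, and most of the 15 largest falls and many members of short lists are left out. Of 223 genes named, 52 fall outside this rule and were chosen after their values were seen, among them Cd3d, Lat, Zap70, Lif, Ltf, Prf1, Cd28, Il4, Il5, Il13 and the neighbours of called genes. Gene order, promoter windows and microRNA sequences are those of RefSeq on GRCm38.p6. Alternatives were the replicate number as a block, quantile normalization, median centring, cyclic loess, a filter on dim genes, other ways to choose among a gene's probe sets (their mean, or the one that varied most), a trended robust prior, HSC and ProT arrays alone, an adjusted p below 0.01, and leaving out each array.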

Additional observations from a re-analysis of the deposited data

How the results depend on the processing

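Without the DP arrays, which leave only the spread of HSC and ProT, 1013 genes were higher and 779 lower, and at an adjusted p below 0.01 the counts were 891 and 644. Leaving out 1 array gave between 1013 and 1988 higher and between 779 and 1994 lower genes, the largest counts without HSC replicate 1, and without ProT replicate 1 there were 854 lower. A group left with 1 array was assumed to vary like the others. The other alternatives kept both counts, and those of at least 2-fold, within 1.5 times. Centring each array on its median gave 1321 higher and 1821 lower genes, or 42.0% higher of those called in place of 53.2%, with the median of all genes at -0.09. The deviations of same-numbered arrays were barely correlated over the genes (0.058 between HSC and ProT). With 2 arrays per group this cannot show whether same-numbered samples share a culture or day. With the replicate number as a block 1534 genes were higher and 1311 lower. Of 200 called genes that are named or among the largest changes, 183 kept the call under every alternative at 0.05, none changed sign, and 16 lost it without the DP arrays.

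Signs changed only for genes that did not pass. After quantile normalization the differences were -0.045 for Col1a1, 0.061 for Cyba, 0.013 for H2-DMa and -0.022 for Hes5, and after cyclic loess -0.011 for Col1a1 and 0.002 for Cyba. After median centring they were -0.074 for Col1a1, -0.069 for Cyp1a1, -0.0089 for Dll4, -0.046 for Hes5, -0.0077 for Krt8 and -0.0059 for Zbtb16. Without 1 array the differences lay between -0.14 and 0.012 for Cd34, -0.085 and 0.10 for Col1a1, -0.16 and 0.13 for Cyba, -0.12 and 0.15 for Cyp1a1, -0.20 and 0.77 for Flt3, -0.15 and 0.096 for H2-DMa, -0.035 and 0.11 for Hes5, -0.068 and 0.59 for Meis1, -0.11 and 0.004 for Pax5, -0.044 and 0.60 for Ptprc, and -0.10 and 0.26 for Zbtb16. The cause of these changes was not tested. The number of arrays limits the precision of all values.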

Other observations

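The gene groups below were written down after the values had been seen, and their counts are descriptions with no test of the group. Of 9 genes for the aryl hydrocarbon receptor and its targets 5 were higher in ProT than in HSC and 0 lower in limma, also at an unadjusted p under 0.05. Beside Ahr, described above, Cyp1b1, a target enzyme, read 5.12, 5.40, 8.93 and 8.91 (3.66 ± 0.13), and Ahrr, the feedback repressor, 5.45, 5.85, 8.89 and 8.57 (3.08 ± 0.16). Cyp1a1, the target induced most in liver, stayed at 5.64, 5.37, 5.56 and 5.47. Epithelial adhesion genes had 8 of 20 members higher and 0 lower, likewise the same at an unadjusted p under 0.05. Cdh1, E-cadherin, read 6.09, 6.10, 11.11 and 11.15 (5.03 ± 0.07), Cdh17 5.42, 5.70, 10.06 and 9.83 (4.38 ± 0.13) and the desmosome gene Dsp 6.45, 6.36, 10.37 and 10.57 (4.06 ± 0.09), while the epithelial keratin Krt8 stayed at 7.31, 7.35, 7.47 and 7.34. Itgae, a receptor of E-cadherin, rose as described above. Of 20 TGF beta ligands, receptors and targets 8 were higher and 3 lower, or 5 lower without HSC replicate 2, with a median difference of 0.21. Among them, Tgfb3, a growth factor that can induce Itgae, read 5.84, 5.63, 10.54 and 10.79 (4.93 ± 0.12), and Tgfbi, induced by TGF beta in myeloid cells, fell to 7.32 and 6.90 from 11.30 and 11.90 (-4.49 ± 0.23).

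Members of 1 family could differ sharply. Of 8 guanylate binding protein genes 4 were higher, and these 4 are neighbours on chromosome 5 in the GRCm38.p6 order: Gbp4 (5.16, 5.17, 9.82 and 9.92), Gbp8 (5.41, 5.82, 9.23 and 9.53), Gbp9 (5.57, 5.67, 7.88 and 7.99) and Gbp11 (6.51, 6.14, 9.15 and 9.30). The other 4 did not pass, and 1 of them was lower without ProT replicate 2. Of 8 aldo-keto reductase genes of the 1C group 3 were higher, Akr1c12 (5.41, 5.58, 9.95 and 9.78), Akr1c13 (6.46, 6.47, 10.10 and 10.11) and Akr1c18 (5.35, 5.20, 8.57 and 7.72), and the others stayed below 5.1 on the 4 arrays.

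Of 287 probe sets for microRNA loci 6 were higher and 3 lower, below the shares over all genes, and without the DP arrays 2 were higher and 0 lower. The lower count was 5 without HSC replicate 1 and 1 without HSC replicate 2 or ProT replicate 1. These probe sets read RNA from the locus and not the mature microRNA. The mature sequences of 4 called loci are shown because they form pairs with a shared seed, bases 2 to 8, in capitals. They are from RefSeq on GRCm38.p6.
miR-15a-5p: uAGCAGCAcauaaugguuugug
miR-15b-5p: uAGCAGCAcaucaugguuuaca
miR-221-3p: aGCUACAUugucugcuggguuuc
miR-222-3p: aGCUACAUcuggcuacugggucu
The loci of the pair that shares AGCAGCA moved apart, with Mir15a lower at 8.29, 8.83, 7.66 and 7.91 (-0.77 ± 0.19) and Mir15b higher at 5.34, 4.76, 6.29 and 5.98 (1.09 ± 0.22), below the median of all genes. The loci of the pair that shares GCUACAU, neighbours on chromosome X, were both lower, Mir221 at 7.25, 7.49, 5.95 and 6.59 (-1.10 ± 0.22) and Mir222 at 6.48, 6.22, 5.65 and 5.82 (-0.62 ± 0.15). Mir142, a locus of blood cells, was higher at 9.80, 9.34, 10.78 and 10.61 (1.13 ± 0.16). All 4 calls shown with a sequence were lost in limma without the DP arrays (adjusted p between 0.0659 and 0.130). Mir222 also lost its call when any 1 HSC or ProT array was left out, and Mir15a when any of them but HSC replicate 1 was. Mir221 lost its call without HSC replicate 2, and Mir15b without ProT replicate 1.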
